A study of Mus musculus with 2 samples.

Results

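Chemokines are small secreted proteins that direct the movement of cells, and they are classed as CC, CXC, CX3C or XC by the arrangement of their first conserved cysteines. They act on G protein-coupled receptors of the CCR, CXCR, CX3CR and XCR families, and the atypical receptor ACKR3 binds CXCL12 and removes it without classical G protein signalling. In lung, this system is best known for placing macrophages, monocytes, neutrophils and lymphocytes, for the exit of cells through lymphatic vessels, and for the CXCL12 signal between vessels and their surroundings. The members described here were all listed genes with a symbol made of Ccl, Cxcl, Ccr or Cxcr, a number and at most 1 letter, together with *Cx3cl1*, *Cx3cr1*, *Xcl1*, *Xcr1* and *Ackr3*. They numbered 55 of the 27254 genes detected in either batch: 37 ligands (23 CC, 12 CXC and 2 others), 17 receptors (10 CC, 5 CXC and 2 others) and *Ackr3*.

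The RNA came from whole lung of wild type (wt) C57BL/6J female mice at postnatal day 1 (PND1), with 1 mouse in each of 2 batches, and was measured by Drop-seq, which captures single cells in droplets and counts RNA molecules by unique molecular identifiers (UMIs). The mice were untreated, carried no engineered allele and formed a single group, so that every comparison was between cell types. Left and right lobes had been digested with TrypLE and collagenase and the red blood cells lysed before capture. With 1 mouse in each batch, mouse and batch cannot be told apart.

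After cells with over 10% mitochondrial UMIs were left out, Batch 1 held 2388 cells and 4432553 UMIs, with a median of 1386.5 UMIs per cell. Batch 2 held 5615 cells and 18232639 UMIs, with a median of 2014. No barcode was shared between the batches. Clusters were formed without the chemokine and receptor genes and named "X-like" from marker genes, which gave 28 types, and 362 cells of the 8003 stayed unnamed. Of the Batch 1 cells in the authors' published list of cell types that could be matched, 1741 of 1924 (90.5%) lay in the matching type. Levels are given as UMIs per 1000000 UMIs of that cell type and batch (CPM), each UMI standing for 1 captured transcript whatever its length, and intervals are exact 95% Poisson intervals for levels and 95% Wilson intervals for shares of cells, which cover counting error only.

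The 55 members held 26596 UMIs, of which 22909 came from ligands and 2526 from receptors. Counts were concentrated in few genes. *Cxcl15* alone gave 11476 UMIs, *Cxcl12* 2850, *Ccl6* 2603 and *Ccl21a* 1806, whereas the receptors with most counts were *Ccr2* with 656, *Cxcr4* with 520, *Cxcr2* with 423 and *Ccr1* with 419, and *Ackr3* had 1161. A total of 29 members reached 50 UMIs, and all but 1 of these are described by cell type. The other 26 held 366 UMIs together, and cell type values are given for 3 of them that had enough counts to be tested. The described member with fewest UMIs was *Ccl12* with 56 and the richest one not described was *Cxcl13* with 40.

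Several cell types had a single leading ligand. Among ligand UMIs, *Cxcl15* made up 96.2% in alveolar type 2 (AT2)-like cells, *Cxcl12* 97.5% in arterial endothelial-like cells, *Ccl21a* 86.7% in lymphatic endothelial-like cells, *Ccl6* 84.8% in macrophage-like cells with low *C1q* genes (C1q-low), and *Ccl5* 96.5% in T and natural killer-like cells. Summed over ligands, the highest levels were in basophil or mast-like cells (10946 CPM in Batch 1 and 29001 CPM in Batch 2) and lymphatic endothelial-like cells (15553 and 7312 CPM). Receptor levels were highest in white blood cells, with 2617 and 3128 CPM in basophil or mast-like cells, 2191 and 1686 CPM in neutrophil-like cells and 1641 and 1875 CPM in monocyte-like cells. Outside the white blood cells, pericyte-like cells had 488 and 262 CPM of receptors, of which 92.6% was *Cxcr4*. Matrix fibroblast-like cells, the most numerous type with 864 and 1195 cells, had 292 and 140 CPM of ligands and 30.3 and 27.4 CPM of receptors.

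**Figure D1:**
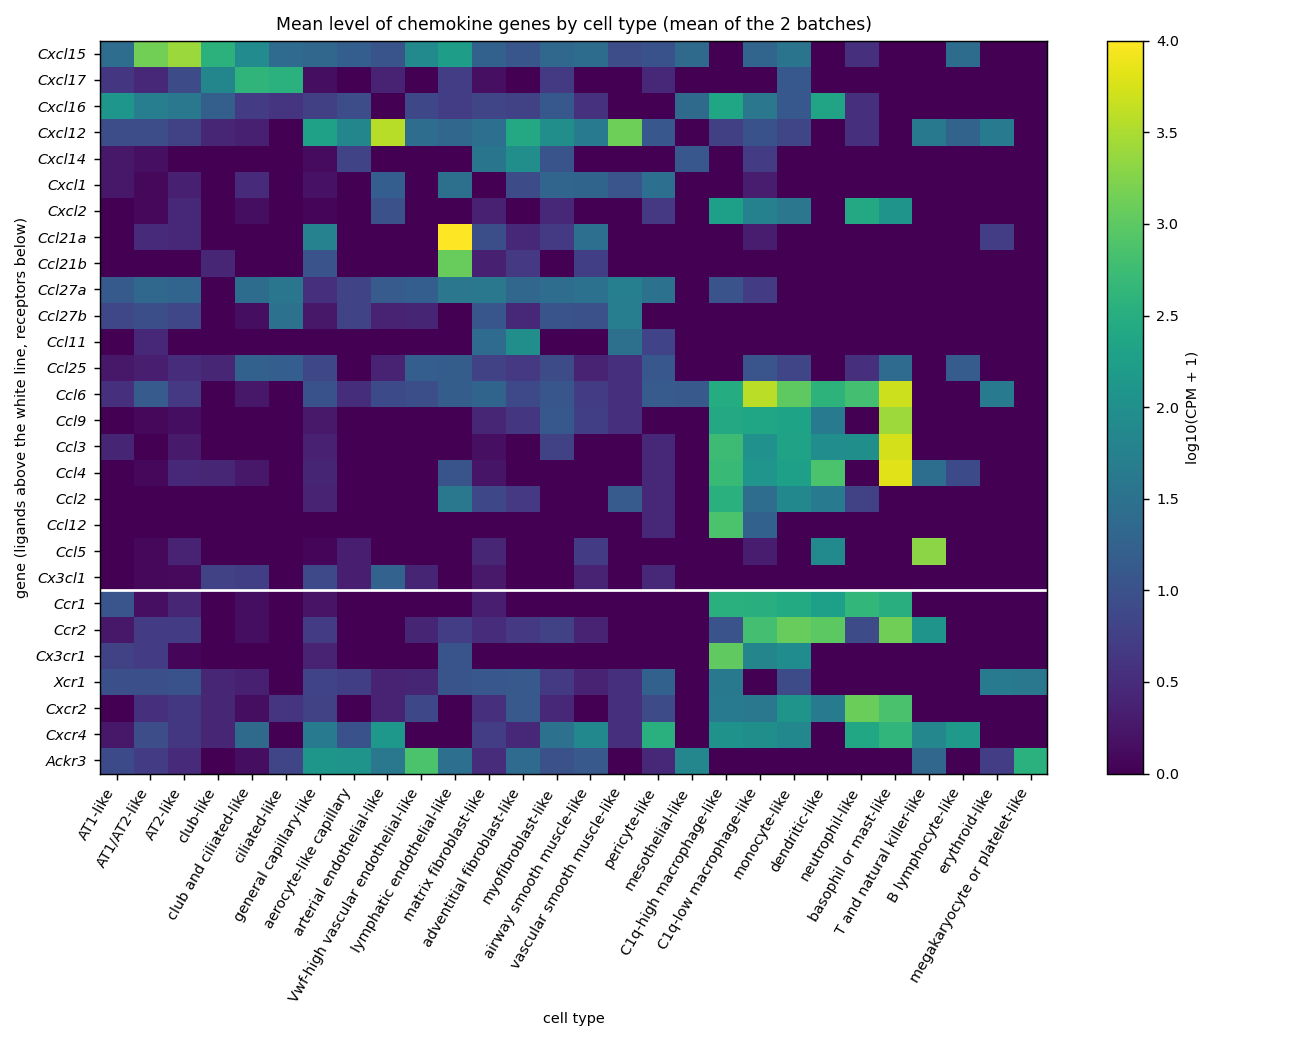
Level of the described members (rows, ligands above the white line and receptors with *Ackr3* below it) in each cell type (columns), drawn as log10 of the mean CPM of the 2 batches plus 1. Most ligand rows are bright in 1 or a few columns: *Cxcl15* in AT2-like, *Cxcl12* in arterial endothelial-like, *Ccl21a* in lymphatic endothelial-like and *Ccl5* in T and natural killer-like cells, and *Ccr1*, *Ccr2*, *Cx3cr1* and *Cxcr2* are bright in white blood cell columns while *Ackr3* is brightest in Vwf-high vascular endothelial-like cells.

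UMI sums per cell type and mouse were tested with edgeR's quasi-likelihood test across 6189 genes in 22 cell types that had at least 5 cells in each batch, with Benjamini-Hochberg adjustment. Of the 55 members, 23 had enough counts to be tested, and all 23 were called higher in at least 1 type than in the mean of the others, where 85.4% of all genes tested were. A member passed the count filter through the type in which it was high, so nothing is read from that count. There were 84 calls of a member in a type, and 70 of them went in 1 direction in both mice. The comparison is with the mean of the log2 levels of the other types, and a called type can therefore lie below a few others. With DESeq2 in place of edgeR, 9 of the members were called: *Ackr3*, *Ccl6*, *Ccl9*, *Ccr2*, *Cxcl12*, *Cxcl15*, *Cxcl16*, *Cxcr2* and *Cxcr4*. The calls of the other members therefore rest on edgeR. The share of all genes called with DESeq2 is not given here, so nothing particular to the members is read from the 9. By cell type, 13 members were called higher in C1q-low macrophage-like cells (18.3% of all genes), 13 in C1q-high macrophage-like cells (11.1%), 11 in monocyte-like cells (12.9%) and 9 in basophil or mast-like cells (4.04%). There were 5 in general capillary-like (21.5%), 5 in T and natural killer-like (6.48%), 4 in lymphatic endothelial-like (8.56%), 3 in AT2-like (26.2%) and 3 in arterial endothelial-like cells (13.9%). AT1/AT2-like (23.6%), B lymphocyte-like (9.42%), airway smooth muscle-like (15.6%), matrix fibroblast-like (23.1%) and vascular smooth muscle-like cells (9.86%) had 2 each. AT1-like (17.4%), vascular endothelial-like with high *Vwf* (Vwf-high, 13.6%), adventitial fibroblast-like (15.5%), aerocyte-like capillary (16.2%), ciliated-like (17.0%), mesothelial-like (9.02%), myofibroblast-like (15.4%) and pericyte-like cells (13.2%) had 1 each. Calls named below are those with 1 direction in both mice unless stated.

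Of the epithelial ligands, *Cxcl15*, which encodes lungkine, a CXC chemokine of lung epithelium, was by far the most abundant. Its level in AT2-like cells was 3267 CPM in Batch 1 (3101 to 3438) and 1766 CPM in Batch 2 (1724 to 1809). It was present in 96.7% of AT2-like cells in Batch 1 (93.0 to 98.5%) and 90.7% in Batch 2 (88.5 to 92.5%). AT2-like cells therefore stood high in both mice, and the 2 intervals of the level did not overlap. In matrix fibroblast-like cells, which should lack the gene, it was found in 1.27% and 4.18% of cells, at median depths of 1283.5 and 1691 UMIs against 2100 and 3662 UMIs in AT2-like cells. After each cell was thinned to 600 UMIs the shares were 71.3% and 58.1% in AT2-like and 0.347% and 1.34% in matrix fibroblast-like cells. Cells with both AT1 and AT2 markers (AT1/AT2-like) had 1814 and 1045 CPM, and AT1-like cells had 31.4 and 21.0 CPM. The gene was called higher in AT2-like cells (log2 difference 7.84, edgeR adjusted p = 1.16e-32) and in AT1/AT2-like cells. Per 1000 UMIs of *Sftpc*, the surfactant protein C gene and a gauge of free AT2 RNA, *Cxcl15* had 26.7 and 24.6 UMIs in AT2-like cells, 9.93 and 11.8 in AT1-like cells, and 105 in the 36 club-like cells of Batch 2. The ratio was 158 in the 52 club and ciliated-like cells of Batch 2. *Cxcl15* was in 29 of 55 club and ciliated-like, 15 of 40 club-like and 13 of 331 AT1-like cells. Their median depths were 14290, 4025 and 1838 UMIs.

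AT2-like and AT1-like cells were compared directly, and *Cxcl15* was the only member called of 23 tested (12.6% of all genes were called). It was higher in AT2-like cells by 7.05 on the log2 scale (SE 0.68, 95% interval 5.68 to 8.41, edgeR adjusted p = 5.64e-12) and in both mice. *Cxcl16*, a ligand made both as a membrane protein and as a shed form, had 189 and 58.3 CPM in AT1-like cells and 38.0 and 41.1 CPM in AT2-like cells. The difference, -0.94 for AT2-like minus AT1-like on the log2 scale (SE 0.58, 95% interval -2.10 to 0.22), did not pass the test (edgeR adjusted p = 0.378). Of the 975 AT2-like cells, 895 held *Cxcl15*, 131 held *Cxcl16* and 125 held both. Macrophage-like cells with high *C1q* genes (C1q-high) had 81.0 CPM in Batch 1, from 2 UMIs and below AT1-like cells, and 366 CPM in Batch 2, above them, and the gene was called higher in those cells, in all 3 alveolar epithelial types and, by edgeR but not DESeq2 (adjusted p = 0.0540), in C1q-low macrophage-like cells. *Cxcl17*, a mucosal chemokine, was found mainly in the airway. Ciliated-like cells had 238 CPM in Batch 1, from 4 UMIs in 6 cells, and 469 CPM in Batch 2 (371 to 584), with the gene in 50% and 79.3% of cells and in 0% and 0.167% of matrix fibroblast-like cells. It was called higher in ciliated-like cells (log2 difference 8.35, edgeR adjusted p = 1.69e-17) and at a lower level in AT2-like cells, but by DESeq2 in neither (adjusted p = 0.154 and 0.822). Club and ciliated-like cells held 108 of its UMIs, in 28 of 55 cells, and club-like cells 39, in 9 of 40. These 2 types had 3 and 4 cells in Batch 1, too few for the fit, so the ciliated-like call was not set against them.

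*Cxcl15* lies on chromosome 5 (GRCm38, 90794534 to 90803067) between *Cxcl3* (90786103 to 90789600) and *Cxcl1* (90891241 to 90893115), with *Cxcl2* next (90903871 to 90905938). *Cxcl1*, *Cxcl2* and *Cxcl3* encode ligands of CXCR2, the main chemokine receptor of neutrophils. The levels of these neighbours went different ways: *Cxcl15* gave 11476 UMIs, mostly in AT2-like cells, *Cxcl2* gave 240, mostly in myeloid cells, *Cxcl1* gave 61 spread thinly and *Cxcl3* 15. The 150 bases before each RefSeq start (GRCm38.p6, plus strand, 5′ to 3′) are shown, with capitals marking each match on either strand to the NF-kappaB motif, searched as 3 G, any 2 bases, 3 T and 2 C. These starts differ somewhat from the gene bounds above, and the *Cxcl1* and *Cxcl2* windows reach inside those bounds.
Cxcl3, chr5:90785951-90786100: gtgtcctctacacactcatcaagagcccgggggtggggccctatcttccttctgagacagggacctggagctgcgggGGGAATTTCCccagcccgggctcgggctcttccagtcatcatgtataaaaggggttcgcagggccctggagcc
Cxcl15, chr5:90794384-90794533: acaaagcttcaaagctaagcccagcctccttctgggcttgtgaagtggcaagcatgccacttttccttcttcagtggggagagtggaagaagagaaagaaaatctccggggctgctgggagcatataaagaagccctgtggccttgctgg
Cxcl1, chr5:90891095-90891244: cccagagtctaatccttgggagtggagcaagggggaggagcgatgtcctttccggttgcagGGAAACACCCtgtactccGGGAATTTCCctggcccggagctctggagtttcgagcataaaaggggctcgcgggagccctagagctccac
Cxcl2, chr5:90903749-90903898: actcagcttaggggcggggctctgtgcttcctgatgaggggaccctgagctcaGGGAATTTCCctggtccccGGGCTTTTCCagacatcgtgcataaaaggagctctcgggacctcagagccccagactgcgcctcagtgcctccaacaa
The motif occurred at 73 bases before the start in *Cxcl3*, at 89 (minus strand) and 71 bases in *Cxcl1* and at 97 and 78 bases in *Cxcl2*, and not in the *Cxcl15* window. It occurred in 304 of 32851 promoter windows of the same kind (0.925%) and in 5 of the 41 members with a window, the other two being *Ccl20* and *Ccl9*. A match of letters is a description of the window and says nothing of binding, and its relation to the levels was not tested.

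In vessels and stroma, *Cxcl12*, the ligand of CXCR4 and ACKR3, was highest in arteries. Arterial endothelial-like cells had 4046 CPM in Batch 1 (3584 to 4552) and 3426 CPM in Batch 2 (3236 to 3623), and held 52.5% of all *Cxcl12* UMIs. The gene was found in 85.7% (68.5 to 94.3%) and 92.0% (85.4 to 95.7%) of these cells, and in 71.4% and 75.0% after thinning. Both mice gave overlapping intervals. In C1q-low macrophage-like cells, which should lack it, it was found in 2.56% and 0.82% of cells at median depths of 1441 and 1672.5 UMIs, against 1528.5 and 2063 in arterial endothelial-like cells. Next came vascular smooth muscle-like cells with 1577 CPM (1086 to 2215) and 1055 CPM (914 to 1211), then adventitial fibroblast-like cells with 389 and 131 CPM, and general capillary-like cells with 254 and 133 CPM. Within each mouse the intervals of the first 3 types did not overlap. The vascular smooth muscle-like cells were made of 2 clusters, and in Batch 1 the 7 cells of the *Pi15*-led cluster held 31 of their 33 UMIs (3220 CPM) and the *Acta2*-led cluster had 177 CPM (21.4 to 639), which overlaps the adventitial interval of 296 to 503. In Batch 2 these clusters had 1366 and 960 CPM. The fit called *Cxcl12* higher in arterial endothelial-like (log2 difference 7.78, edgeR adjusted p = 4.91e-37), vascular smooth muscle-like, general capillary-like, adventitial fibroblast-like and myofibroblast-like cells. Of 2 clusters named arterial endothelial-like, the *Stmn2*-led cluster had 4998 and 3774 CPM and the *Dkk2*-led cluster had 2858 and 3051 CPM.

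The receptor *Cxcr4* was highest in other cells. Pericyte-like cells, the mural cells of capillaries, had 444 CPM in Batch 1 (300 to 634) and 251 CPM in Batch 2 (196 to 318), with the gene in 34.5% and 33.3% of cells and in 15.5% and 14.6% after thinning. Matrix fibroblast-like cells had it in 0.579% and 0.753% of cells, at median depths of 1283.5 and 1691 UMIs against 1097 and 1705.5 in pericyte-like cells. Among white blood cells, basophil or mast-like cells had 238 and 616 CPM, neutrophil-like cells 365 and 117 CPM and B lymphocyte-like cells 44.2 and 235 CPM. Each of these Batch 1 values came from 2 UMIs, with intervals of 28.8 to 860, 44.2 to 1319 and 5.36 to 160 CPM. Arterial endothelial-like cells had 234 CPM in Batch 1 and 33.7 CPM in Batch 2. In the direct comparison of pericyte-like with matrix fibroblast-like cells, *Cxcr4* was the only member called of 23 (12.5% of all genes were called). It was higher in pericyte-like cells by 5.84 on the log2 scale (SE 0.69, 95% interval 4.47 to 7.22, edgeR adjusted p = 1.08e-09). *Cxcl12* differed by -1.60 in that comparison (SE 0.83, 95% interval -3.26 to 0.07), which did not pass (edgeR adjusted p = 0.257). Beside pericyte-like cells, *Cxcr4* was called higher, in the same direction in both mice, in both macrophage-like types, basophil or mast-like, B lymphocyte-like, arterial endothelial-like, airway smooth muscle-like and monocyte-like cells, the last of which DESeq2 did not call (adjusted p = 0.129). The airway smooth muscle-like cells came mostly from different clusters in the 2 mice. The *Aspn*-led cluster held 73 and 10 cells, with 54.9 and 0 CPM of *Cxcr4*. The *Tgfbi*-led cluster held 8 and 193 cells, with 285 CPM, from 3 UMIs in 1 cell, and 73.6 CPM.

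*Ackr3*, the scavenging receptor for CXCL12, was highest in a blood vascular endothelial type other than arterial. Vwf-high vascular endothelial-like cells, named for the gene of the clotting protein von Willebrand factor, had 765 CPM in Batch 1 (582 to 987) and 689 CPM in Batch 2 (600 to 788). It was found in 88.9% (67.2 to 96.9%) and 79.6% (66.4 to 88.5%) of these cells, against 0.231% and 0.502% of matrix fibroblast-like cells. The Vwf-high cells were deep, with medians of 2493 and 3811 UMIs, and after thinning the shares were 16.7% and 22.4% against 0.116% and 0.251%. General capillary-like cells had 86.9 and 175 CPM and, being numerous, held 58.2% of *Ackr3* UMIs, while aerocyte-like capillary cells, a gas exchange endothelium, had 67.2 and 166 CPM. Arterial endothelial-like cells, the highest in *Cxcl12*, had 29.2 and 47.7 CPM of *Ackr3*. Of the 4 megakaryocyte or platelet-like cells, 3 held *Ackr3*, with 9 UMIs, 7 of them in 1 cell. *Ackr3* was called higher in Vwf-high (log2 difference 7.13, edgeR adjusted p = 2.11e-26), general capillary-like, aerocyte-like capillary, arterial endothelial-like and mesothelial-like cells, of which the arterial call was lost after thinning (edgeR adjusted p = 0.809). At the level of single cells, 43 of 1631 general capillary-like cells held UMIs of both *Cxcl12* and *Ackr3*, where 218 held the first and 391 the second. Of 140 arterial endothelial-like cells, 127 held *Cxcl12*, and 12 held it together with *Ackr3*, as did 12 with *Cxcr4*.

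**Figure D2:**
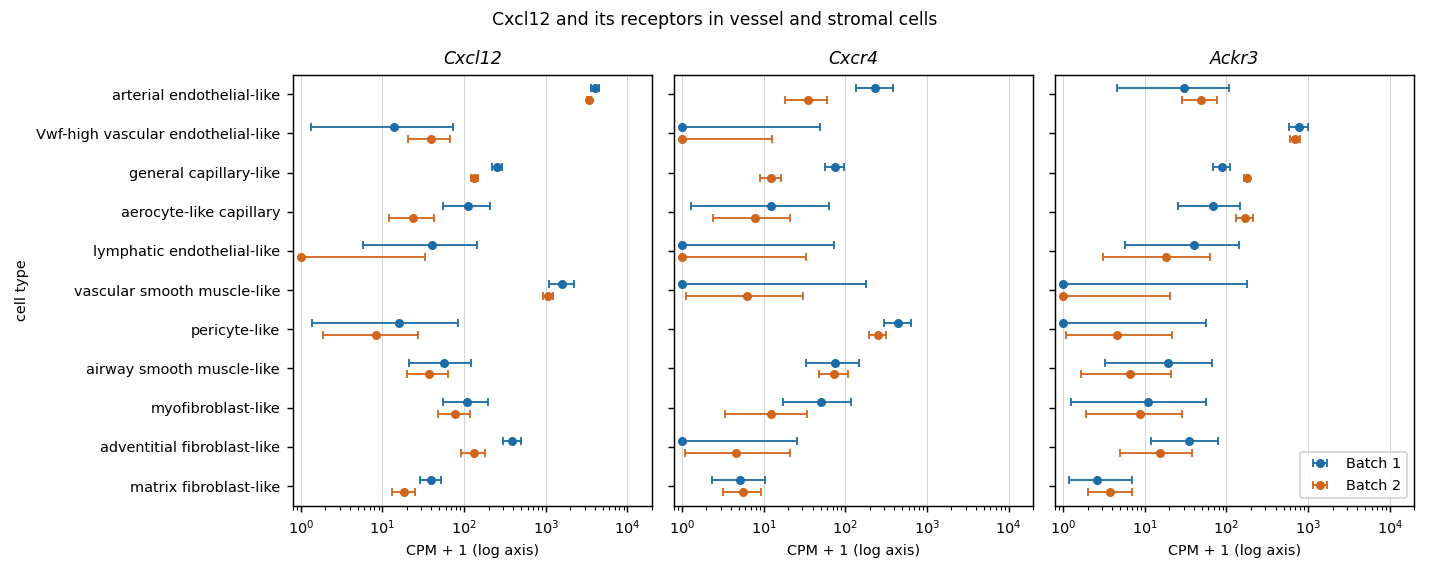
Level of *Cxcl12*, *Cxcr4* and *Ackr3* (CPM plus 1, log axis) in vessel and stromal cell types, with 1 point per batch and bars for the exact 95% Poisson interval. *Cxcl12* peaks in arterial endothelial-like cells (4046 and 3426 CPM), *Cxcr4* in pericyte-like cells (444 and 251 CPM) and *Ackr3* in Vwf-high vascular endothelial-like cells (765 and 689 CPM).

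Fibroblasts carried several ligands at lower levels. *Cxcl14*, a chemokine of epithelia and stroma, had 114 and 72.7 CPM in adventitial fibroblast-like cells and 63.9 and 5.93 CPM in matrix fibroblast-like cells. *Ccl11*, which encodes the eosinophil attractant eotaxin, had 134 and 50.9 CPM in adventitial fibroblast-like cells and 47.5 and 1.37 CPM in matrix fibroblast-like cells. Both lay under the count filter of the test. The adventitial fibroblast-like cells were made of 2 clusters that differed in their ligands. The *Dcn*-led cluster had 490 and 295 CPM of *Cxcl12* with the gene in 48.1% and 48.7% of cells, whereas the *Igfbp2*-led cluster had 30.7 and 24.0 CPM with the gene in 6.67% and 6.25%. *Cxcl14* ran the other way in Batch 1, with 17.2 CPM in the *Dcn*-led cluster, below matrix fibroblast-like cells, and 460 CPM in the 15 cells of the *Igfbp2*-led cluster, but had 64.6 and 77.9 CPM in Batch 2. *Ccl27a* (38.5 and 39.7 CPM in matrix fibroblast-like cells) and *Ccl27b* (13.9 and 7.30 CPM) were low and broad, and differ at 3 of 425 aligned transcript bases, so that their split is uncertain. *Cx3cl1*, the membrane-bound ligand of CX3CR1, had 14.6 and 19.7 CPM in arterial endothelial-like cells, with 7.79 and 5.76 CPM in general capillary-like cells. *Ccl25*, known as a ligand of CCR9, had 39 of its 125 UMIs in club and ciliated-like cells, all in Batch 2, at 32.5 CPM and in 21.2% of those cells, against 4.09 and 5.93 CPM in matrix fibroblast-like cells. *Cxcl1* had 14.8 and 40.1 CPM in pericyte-like cells, where 5 cells held 12 of its 61 UMIs.

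Among the 55 members, the highest level in a cell type of Batch 1 was that of *Ccl21a* in lymphatic endothelial-like cells. *Ccl21a*, whose product draws CCR7-bearing dendritic cells and T cells into lymphatic vessels, had 13908 CPM in Batch 1 (12904 to 14970) and 5910 CPM in Batch 2 (5475 to 6370). It was found in 93.8% and 96.0% of the 16 and 25 lymphatic endothelial-like cells, in 93.8% and 88.0% after thinning, and in 0.926% and 0.586% of matrix fibroblast-like cells. These cells had median depths of 2721.5 and 4054 UMIs. *Ccl21b* had 1371 and 995 CPM, with 76.8% of its UMIs in the same cells. General capillary-like cells had 110 and 7.48 CPM of *Ccl21a*, carried by 3 and 7 cells, 1 of which held 83 of the 111 UMIs. Both genes were called higher in lymphatic endothelial-like and general capillary-like cells, though by DESeq2 in neither. A call of *Ccl21a* in matrix fibroblast-like cells was lost with RLE factors (adjusted p = 0.0540), with no replicate block (0.0882), with DESeq2 (0.970) and after thinning (0.137).

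The copies are nearly the same gene, which limits what their separate levels mean. *Ccl21a* (chr4:42772860-42773993) and *Ccl21b* (chr4:42255767-42256432) share 400 of 402 coding bases, with the differences T84A and C194T, in which the base of *Ccl21a* comes first and positions are counted from the first coding base. The 135 coding bases from position 72 to 206, read 5′ to 3′ from the GENCODE transcripts of GRCm38, hold both differences, in capitals.
Ccl21a: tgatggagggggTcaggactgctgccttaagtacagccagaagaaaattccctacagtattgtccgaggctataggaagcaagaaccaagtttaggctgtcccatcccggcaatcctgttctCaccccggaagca
Ccl21b: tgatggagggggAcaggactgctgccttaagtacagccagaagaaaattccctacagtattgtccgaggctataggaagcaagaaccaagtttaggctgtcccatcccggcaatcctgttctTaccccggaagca
The authors' aligner kept 1 position for each read, so a read without a differing base could be placed on either copy. Gene models with symbols outside the rule took similar counts and were named after their values were seen: *Gm21541* had 998 and 662 UMIs and *Gm13304* 967 and 669, against 1072 and 734 for *Ccl21a*, and *Gm10591*, identical to *Ccl21b* over 402 bases, had 134 and 123 against 113 and 128. Summed over these 5 genes, lymphatic endothelial-like cells had 42723 and 18423 CPM.

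Against the mean of the blood vascular endothelial types, 6 members were called in lymphatic endothelial-like cells, 4 higher and 2 lower, where 10.7% of all genes were called. *Ccl21a* was higher by 12.75 on the log2 scale (SE 0.47, edgeR adjusted p = 4.87e-27) and *Ccl21b* by 10.40 (SE 0.63, edgeR adjusted p = 1.37e-17). *Cxcl12* was lower, with a log2 difference of -3.91 (SE 0.77, edgeR adjusted p = 0.000132), as was *Ackr3* with -2.75 (SE 0.66, edgeR adjusted p = 0.00215). After thinning to 600 UMIs the *Ackr3* difference was -1.37 and did not pass (edgeR adjusted p = 0.812). The 4 went the same way in both mice. The calls of *Cxcl15* and *Ccl2* did not: 1 lymphatic endothelial-like cell held 39 *Cxcl15* UMIs, and the *Ccl2* call rested on 4 UMIs in Batch 1. The fold of a gene near 0 in the other types depends on the prior count, and with DESeq2 the *Ccl21a* difference of 11.61 did not pass (adjusted p = 0.369), nor did that of *Ccl21b* (adjusted p = 0.541).

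Among white blood cells, the CC ligands divided the myeloid types. *Ccl6*, a macrophage attractant also known as C10, was highest in C1q-low macrophage-like cells among the larger types, at 4345 CPM in Batch 1 (3870 to 4862) and 3303 CPM in Batch 2 (3145 to 3468), and these held 74.0% of its UMIs. Of their 1927 UMIs, 1417 lay in a cluster of 56 cells led by *Atp6v0d2*, described below. The other cluster, led by *Ctss*, had 2102 and 1016 CPM. In Batch 2 its interval (918 to 1121) overlapped that of monocyte-like cells (721 to 1200). Basophil or mast-like cells had 2617 and 7298 CPM, with the gene in 2 of 5 and 7 of 9 cells, and 1 cell held 60 of the 176 UMIs. Monocyte-like cells had 1125 and 938 CPM. C1q-low macrophage-like cells carried it in 66.7% and 69.7% of cells and in 48.7% and 47.1% after thinning, against 2.66% and 2.76% of matrix fibroblast-like cells. *Ccl9*, a ligand of CCR1 whose gene lies beside *Ccl6* on chromosome 11, was highest in basophil or mast-like cells (2261 and 2938 CPM), with 329 and 126 CPM in C1q-low macrophage-like cells. Both genes were called higher in both macrophage-like types, monocyte-like cells and basophil or mast-like cells, and of these calls DESeq2 kept all 4 for *Ccl6* and the basophil or mast-like one for *Ccl9*.

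*Ccl3* and *Ccl4*, which encode the leukocyte attractants MIP-1 alpha and MIP-1 beta and are neighbours on chromosome 11 (83647844 to 83649355 and 83662584 to 83664683), were led by the small basophil or mast-like group. In its 5 and 9 cells, in which all 8 markers of that type were detected, *Ccl3* had 3926 CPM (2703 to 5514) and 7061 CPM (5972 to 8290). *Ccl4* had 2142 CPM (1269 to 3385) and 11183 CPM (9802 to 12705). Of these 14 cells, 13 held *Ccl3* and the same 13 held *Ccl4*, and in matrix fibroblast-like cells neither gene was in over 0.167% of cells in either mouse. C1q-high macrophage-like cells came next among the types tested, with 122 and 992 CPM of *Ccl3* and 405 and 616 CPM of *Ccl4*, and 11 of these 65 cells held both. Both genes were called higher in these 2 types and in C1q-low macrophage-like and monocyte-like cells by edgeR, but in no type by DESeq2 (adjusted p = 0.313 for *Ccl3* and 0.135 for *Ccl4* in basophil or mast-like cells).

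C1q-high macrophage-like cells were set apart by ligands of CCR2, which draw monocytes. *Ccl12* had 1297 CPM in Batch 1 (887 to 1830) and 183 CPM in Batch 2 (110 to 286), and 91.1% of its UMIs lay in these 19 and 46 cells. *Ccl2* had 122 and 578 CPM and *Ccl7* had 162 and 193 CPM. The order of the mice thus differed between *Ccl12* and *Ccl2*. Of the 65 cells, 14 held *Ccl12*, 13 held *Ccl2* and 5 held both. All 3 genes were called higher in this type, with log2 differences of 9.89, 8.39 and 8.57. *Ccl2* was also called in monocyte-like and C1q-low macrophage-like cells and *Ccl12* in the latter, at lower levels. DESeq2 called none of the 3 in any type, with adjusted p = 0.528, 0.589 and 0.614 in C1q-high macrophage-like cells for *Ccl12*, *Ccl2* and *Ccl7*. For *Ccl2*, 1 cell held 25 of the 63 UMIs of this type.

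**Figure D3:**
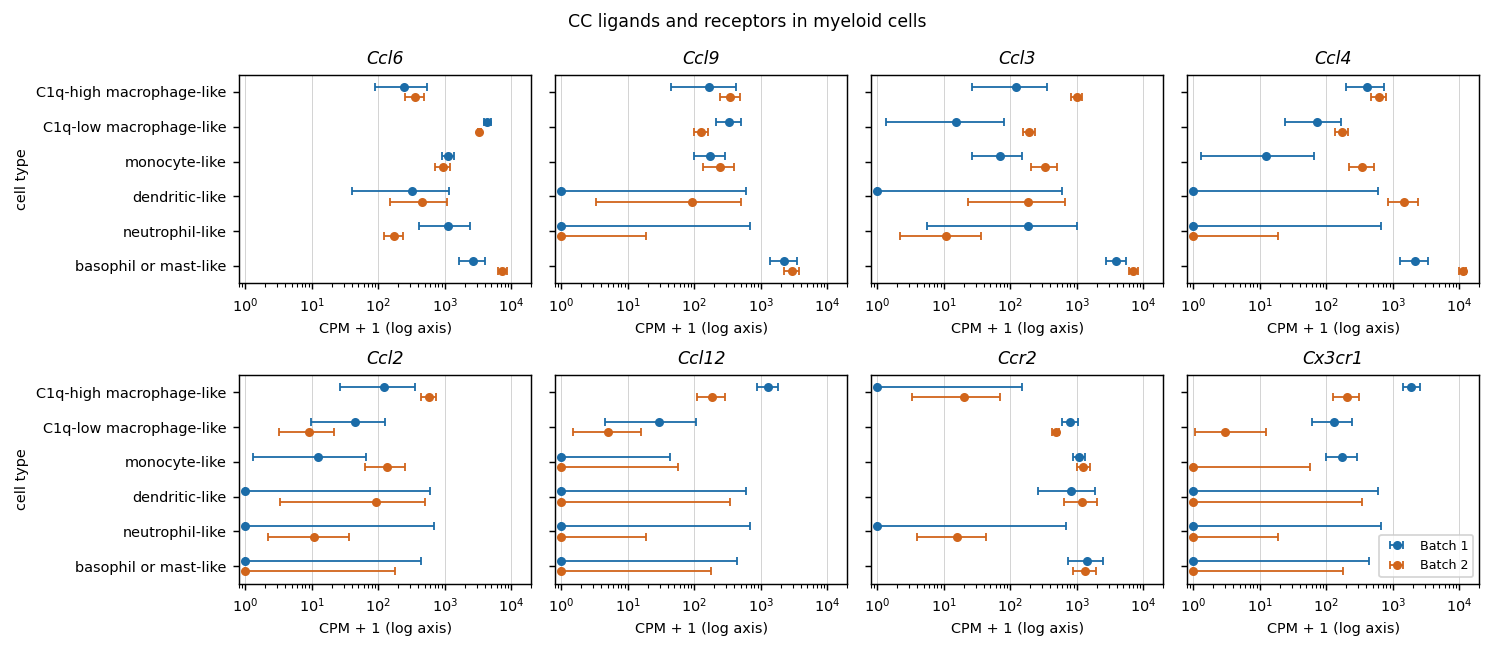
Level (CPM plus 1, log axis) of 6 CC ligands and of *Ccr2* and *Cx3cr1* in 6 myeloid types, with 1 point per batch and exact 95% Poisson intervals. *Ccl3*, *Ccl4* and *Ccl9* are highest in basophil or mast-like cells, *Ccl2* and *Ccl12* in C1q-high macrophage-like cells, and *Ccr2* is high in monocyte-like, dendritic-like, basophil or mast-like and C1q-low macrophage-like cells and low in neutrophil-like and C1q-high macrophage-like cells, the latter being highest in *Cx3cr1* (1904 and 202 CPM).

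The receptors for these ligands followed a different division. *Ccr2*, the receptor of inflammatory monocytes, had 1090 CPM (882 to 1333) and 1250 CPM (997 to 1548) in monocyte-like cells, in 69.1% and 84.4% of cells and in 50.9% and 40.6% after thinning. Basophil or mast-like cells had 1428 and 1327 CPM, dendritic-like cells 807 and 1187 CPM and C1q-low macrophage-like cells 786 and 480 CPM. C1q-high macrophage-like cells, which carried the ligands, had 0 UMIs in Batch 1 and 2 in Batch 2, neutrophil-like cells had 0 and 3, and matrix fibroblast-like cells had it in 0.231% and 0.502% of cells. The gene was called higher in monocyte-like (log2 difference 8.55, edgeR adjusted p = 6.68e-28), C1q-low macrophage-like and basophil or mast-like cells.

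*Cx3cr1*, the fractalkine receptor of patrolling monocytes and tissue macrophages, was nearly the reverse. C1q-high macrophage-like cells had 1904 CPM in Batch 1 (1399 to 2532) and 202 CPM in Batch 2 (125 to 309), in 89.5% and 17.4% of cells, at median depths of 1077 and 2182 UMIs. Monocyte-like cells had 172 CPM in Batch 1 and 0 UMIs in Batch 2, and matrix fibroblast-like cells had 0 UMIs in both. The 2 mice thus differed widely in this receptor, yet it was called in C1q-high macrophage-like cells with a log2 difference of 9.45 (edgeR adjusted p = 7.94e-19) and the same direction in both, and in C1q-low macrophage-like cells at 129 and 2.04 CPM. DESeq2 made neither call (adjusted p = 0.551 and 0.788). No C1q-high macrophage-like cell held both *Ccr2* and *Cx3cr1*, but only 1 held the first, against 25 the second, so this count says little. Of 87 monocyte-like cells, 65 held *Ccr2*, 7 held *Cx3cr1* and 5 held both. *Ccr1*, which binds CCL3, CCL5, CCL6 and CCL9, was spread more evenly over the myeloid types, with 286 and 354 CPM in C1q-low macrophage-like, 243 and 443 CPM in C1q-high macrophage-like and 548 and 340 CPM in neutrophil-like cells. Within each mouse the intervals of these 3 types overlapped. In Batch 1 the neutrophil-like value came from 3 UMIs in 1 cell (113 to 1601 CPM), an interval too wide to tell the types apart. The C1q-low macrophage-like and neutrophil-like values each pool 2 clusters that differed in Batch 2, as given below. It was called higher in both macrophage-like types, monocyte-like and basophil or mast-like cells by edgeR and in none of them by DESeq2 (adjusted p from 0.529 to 0.818). In all, 26 of 87 monocyte-like cells held it together with *Ccr2*.

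Within the C1q-low macrophage-like cells, 2 clusters split the ligand *Ccl6* from the receptor *Ccr2*. A cluster led by *Atp6v0d2*, with *Fabp4* and *Mrc1* among its leading genes, held 12 and 44 cells. It had 11779 and 12192 CPM of *Ccl6*, in 100% and 90.9% of cells, and no *Ccr2* UMI in any of its 56 cells, for which the upper limits were 227 and 36.7 CPM. The cluster led by *Ctss* held 27 and 200 cells and had 2102 and 1016 CPM of *Ccl6*, with *Ccr2* at 1023 and 604 CPM in 55.6% and 45.0% of cells. The intervals of the clusters were apart for both genes in both mice. *Ccr1* did not split alike in both mice, with 308 and 69.6 CPM in the *Atp6v0d2*-led and 279 and 427 CPM in the *Ctss*-led cluster. The *Atp6v0d2*-led cluster showed 3 of the 8 macrophage markers and was named after the clusters were seen. By mean log2 marker level against the median cluster, it scored highest for AT2 (2.07). Its macrophage score was 1.46, under the minimum of 1.5 set for a name. In the authors' list, 10 of its Batch 1 cells were macrophages. No chemokine or receptor gene was used to form the clusters, but the split was noticed after the values were seen and was not tested.

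Neutrophil-like cells, with 3 in Batch 1 and 80 in Batch 2, had too few cells in Batch 1 for the fit. *Cxcr2* had 1278 CPM in Batch 1, from 7 UMIs, and 1215 CPM in Batch 2 (1069 to 1375), and these cells held 60.8% of its UMIs. It was in 83.8% of the Batch 2 cells and in 57.5% after thinning, against 0.669% and 0.167% of matrix fibroblast-like cells, at median depths of 1897.5 and 1691 UMIs. Its ligand *Cxcl2* was also highest there in Batch 2, at 525 CPM (430 to 633), with 366 CPM in C1q-high macrophage-like and 99.7 CPM in C1q-low macrophage-like cells. In Batch 1, *Cxcl2* had 0 UMIs in the 3 neutrophil-like cells, which allows up to 673 CPM. *Cxcr2* was also present in basophil or mast-like cells, at 714 and 711 CPM, and in monocyte-like cells, at 57.4 and 179 CPM, and was called higher in both. *Cxcl2* was called higher in C1q-low macrophage-like cells by edgeR but not by DESeq2 (adjusted p = 0.628).

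The neutrophil-like cells of Batch 2 were again made of 2 clusters. The *Camp*-led cluster, named for a granule gene that is active in immature neutrophils, held 48 cells with a median of 2869.5 UMIs. The cluster led by *Retnlg*, a gene of mature neutrophils, held 32 cells with a median of 1477 UMIs. *Cxcr2* had 725 CPM (597 to 871) in the first and 2746 CPM (2305 to 3246) in the second, and *Cxcl2* had 32.1 CPM in 3 cells against 2064 CPM (1685 to 2503) in 59.4% of cells. *Ccl6* had 6.41 against 681 CPM, and *Ccr1* 250 against 621 CPM. The deeper cluster was thus the lower in all 4 genes. All 3 Batch 1 cells lay in the *Retnlg*-led cluster, so the difference was seen in 1 mouse and was not tested.

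**Figure D4:**
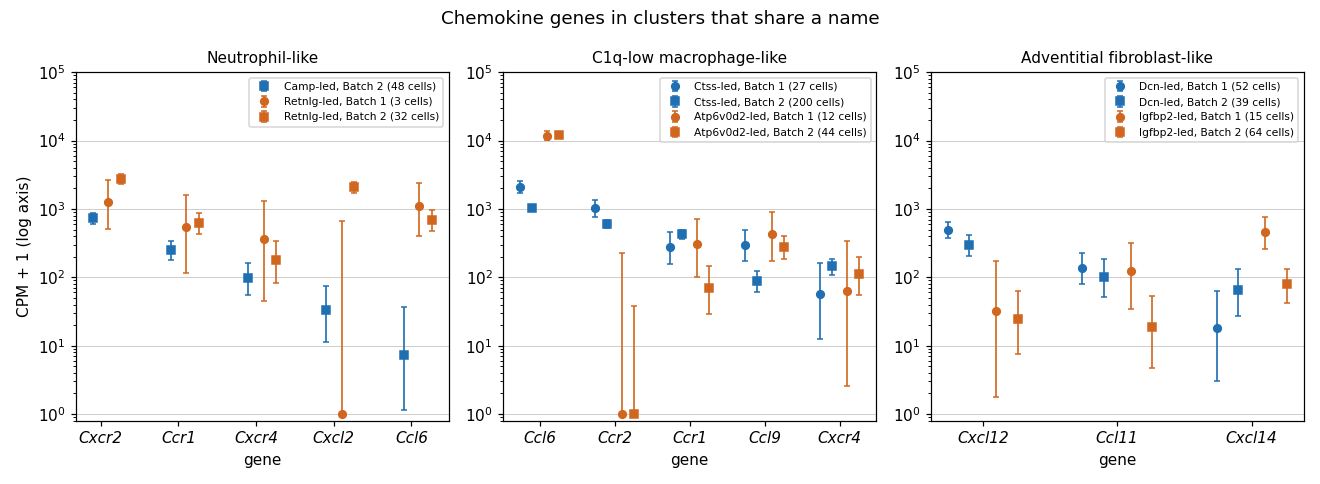
Level (CPM plus 1, log axis) of members in clusters that share a cell type name, by batch, with exact 95% Poisson intervals, for neutrophil-like, C1q-low macrophage-like and adventitial fibroblast-like cells. *Cxcr2* and *Cxcl2* are higher in the *Retnlg*-led than in the *Camp*-led cluster, *Ccl6* and *Ccr2* take opposite clusters among C1q-low macrophage-like cells, and *Cxcl12* is higher in the *Dcn*-led cluster.

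Lymphocytes were few. *Ccl5*, an attractant of T cells and monocytes made by cytotoxic lymphocytes, had 947 CPM in Batch 1 (504 to 1619) and 3150 CPM in Batch 2 (2759 to 3582) in the 7 and 29 T and natural killer-like cells, which held 82.8% of its UMIs. It was in 42.9% and 55.2% of these cells and in 0.231% and 0.335% of matrix fibroblast-like cells, and was called in this type alone (log2 difference 11.99, edgeR adjusted p = 2.20e-29), a call that DESeq2 did not make (adjusted p = 0.448). *Ccr9*, the receptor of thymocytes and gut-homing T cells, had 218 and 122 CPM in the same cells. *Ccr7*, the receptor for CCL21, had 44.2 and 111 CPM in B lymphocyte-like and 72.8 and 108 CPM in T and natural killer-like cells and was called in both by edgeR, from 25 UMIs in all. DESeq2 called neither *Ccr9* nor *Ccr7* in any type. *Xcr1*, known from cross-presenting dendritic cells, had 0 UMIs in the 10 dendritic-like cells, which were too few to fit, and was low and spread elsewhere, with 12.3 and 10.0 CPM in matrix fibroblast-like cells.

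Set side by side as senders and receivers, textbook pairs mostly had their partners highest, by mean CPM of the 2 batches, in different cell types. Of 43 pairs listed, 14 had both partners described, and the ligand and the receptor had the same highest type in 1, *Cxcl2* with *Cxcr2* in neutrophil-like cells. That pair rests on Batch 2, since the 3 neutrophil-like cells of Batch 1 held no *Cxcl2* UMI. Of the 108 *Cxcl2* UMIs in neutrophil-like cells, 103 lay in the *Retnlg*-led cluster. A highest type can lie close to the next, and cells below the top can carry both partners. Basophil or mast-like cells, highest in *Ccl3* and *Ccl9*, also had 238 and 426 CPM of *Ccr1*, from 11 UMIs in 8 of 14 cells. The share for pairs of other genes is not given here, so nothing is read from the count of pairs. For *Cxcl12*, the highest type was arterial endothelial-like, against basophil or mast-like (15 UMIs in 9 of 14 cells) and then pericyte-like for *Cxcr4* and Vwf-high vascular endothelial-like for *Ackr3*. For *Ccl2* and *Ccl12* it was C1q-high macrophage-like, against basophil or mast-like (40 UMIs in 10 of 14 cells) and monocyte-like for *Ccr2*. In 7 pairs the ligand was described but the receptor stayed under 50 UMIs in all, among them *Ccl21a* with *Ccr7*, *Cxcl16* with *Cxcr6* (21 UMIs) and *Ccl11* with *Ccr3* (9 UMIs). A textbook pair says which proteins can bind, and no contact between cells was measured.

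The 26 members under 50 UMIs are named with their totals. They were *Cxcl13* with 40, *Ccr9* 38, *Ccl7* 36, *Ccl17* 26, *Ccr7* 25, *Ccl20* 22, *Cxcr6* 21, *Ccr4* 20, *Cxcl3* and *Cxcl9* 15 each, *Ccr6* and *Cxcr5* 12 each, and *Ccl24* and *Ccl28* 11 each. *Ccl19*, *Ccr10* and *Cxcl10* had 10 each, *Ccr3* and *Cxcr3* 9 each, *Cxcl5* 4, *Ccl22* and *Xcl1* 3 each, and *Ccl1*, *Ccl26*, *Ccl8* and *Ccr8* 1 each. Of these, *Ccl7*, *Ccr7* and *Ccr9* were tested, and the others were too few in counts to be compared between cell types. The exons of 8 members overlap those of another gene, *Cxcl16*, *Ccl25*, *Ccl27a* and *Cx3cr1* among those described, and whether counting used strand is not given in the sources used here.

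Of 18 genes chosen as companions of the system, 12 were tested and all 12 were called in at least 1 type, against 85.4% of all genes. *Pf4* and *Ppbp*, platelet chemokines whose symbols the rule does not match, were highest in megakaryocyte or platelet-like cells (29656 and 27114 CPM, and 12085 and 2049 CPM), of which there were 1 and 3, and *Pf4* also had 10413 and 3178 CPM in C1q-high macrophage-like cells. *Ccrl2*, a chemerin-binding receptor related to the chemokine receptors, had 326 and 153 CPM in pericyte-like cells, and was called higher there than in matrix fibroblast-like cells, whereas the adhesion gene *Vcam1* was lower. *Icam1*, which binds leukocyte integrins, had 713 and 422 CPM in AT1-like cells and was lower in AT2-like cells, where *Dpp4*, a protease that trims several chemokines, was higher. In lymphatic endothelial-like cells *Rgs2* and *Ccrl2* were lower than in blood vascular endothelium and no companion was higher. The scavengers *Ackr2*, *Ackr4* and *Darc* (ACKR1) had 127, 25 and 3 UMIs.

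The 2 mice gave the same leading type for most members. Of the 29 with at least 50 UMIs, 18 had the same highest type among the 22 fitted in both. Levels within a type also differed between the mice. In 110 pairs of a member and a type with at least 10 UMIs, covering 30 members, the Poisson intervals of the mice were apart in 37. The higher value was in Batch 1 in 24 and in Batch 2 in 13. The same share over all genes is not given here, so nothing particular to the members is read from these counts. Higher in Batch 1 were *Ccl21a* in lymphatic endothelial-like, *Cxcl15* in AT2-like and *Cx3cr1* and *Ccl12* in C1q-high macrophage-like cells. Higher in Batch 2 were *Ccl4* in basophil or mast-like, *Ccl3* in C1q-high macrophage-like and *Ackr3* in general capillary-like cells. Batch 2 was also the deeper, and 25.7% of its cells, against 1 cell of Batch 1, had been left out for exceeding the mitochondrial limit. Their share in these differences was not tested.

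**Figure D5:**
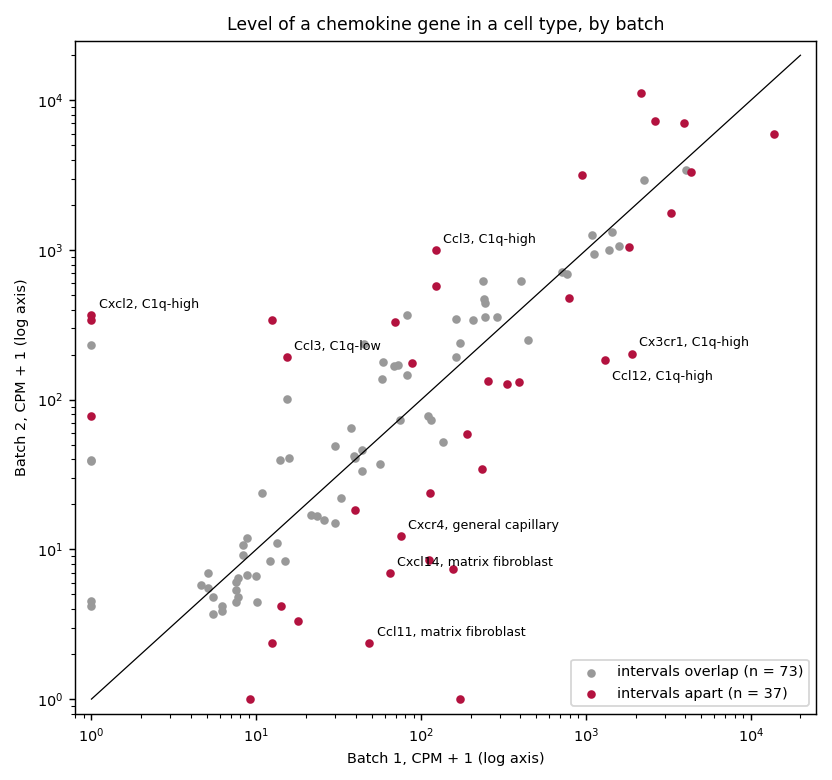
Level in Batch 1 (horizontal) and Batch 2 (vertical) of each member and cell type pair with at least 10 UMIs, both on log axes of CPM plus 1, with a line of equality. Of the 110 points, 37 have Poisson intervals that lie apart and 73 overlap. The share over all genes is not given.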

How the data were processed

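Single-cell RNA-seq was made by Drop-seq from whole lung at PND1, in 2 batches of 1 mouse each. The authors deposited UMI counts per gene and cell, after alignment to mm10 with Bowtie2 2.2.7, keeping 1 alignment per read, and Drop-seq tools counting over exons. Every deposited cell had at least 500 genes. Cells with over 10% mitochondrial UMIs were removed here. Clustering (Python 3.11.15, scikit-learn 1.9.0, leidenalg 0.10.2: 2000 variable genes, 40 principal components, 15 neighbours, Leiden resolutions 2 and 1.5) left out the members and their companions. Names came from markers, with a few set after the clusters were seen. Mixed-lineage clusters stayed unnamed and no doublet caller was run. Counts were summed per type and batch and fitted for all genes with edgeR 4.0.16 (R 4.3.3; TMM, quasi-likelihood test, Benjamini-Hochberg, threshold 0.05), with the batch as a block, since the sums of 1 batch come from 1 animal. Alternatives used DESeq2 1.42.0, other factors, filters, cell labels and thinning to 600 UMIs (seed 1). Depth per cell type limits precision, as the intervals show. Tested on simulated data for AT2-like against AT1-like over 6189 genes, the fit found 9 of 61 genes changed by 1 on the log2 scale, 44 of 60 by 2 and 53 of 65 by 3, and 4 of its 110 calls were wrong. Named genes were the members with at least 50 UMIs, each called type with 1 direction in both batches, and the companion list. Members and lists were chosen with earlier results of these data known. Promoters came from RefSeq (GRCm38.p6). The levels of 1 member are not reported here.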

Additional observations from a re-analysis of the deposited data

How the results depend on the processing

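The 23 members called higher in a cell type stayed 23 with RLE factors and with no replicate block, were 19 with labels carried from the authors' listed cells and 21 at 5% mitochondrial UMIs, but 37 with every gene that had at least 1 count, 9 with DESeq2 and 14 after thinning to 600 UMIs. The lymphatic comparison gave 6 calls, 5 with no replicate block, 2 with DESeq2 and 3 after thinning. The pericyte comparison gave 1 call, 3 with every gene, 2 with carried labels and 2 with only the compared types. The AT2 and AT1 comparison gave 1 in each. The shares of all genes called under these other settings are not given here, so nothing particular to the members is read from the changes. Without 1 replicate, as differences with no test, the counts were 22 to 23, 5 to 5, 1 to 1 and 1 to 1. *Cxcl15* in lymphatic endothelial-like cells went from 3.13 (log2) to -2.41 without replicate 2 and 4.22 without replicate 1, and to -7.03 with carried labels. *Ccl2* there went from 5.76 to -0.022 without replicate 1 and 4.04 without replicate 2. With no replicate block, 76 of the 78 single calls stayed past the threshold and 2 did not, and with DESeq2 37 stayed and 40 did not. The cause was not tested. The median share of cells holding a member in its highest type, 48.2%, was 27.7% at 2 or more UMIs, 19.3% after thinning, and 40 to 50% without 1 replicate (added after seeing the data). Macrophage against neutrophil was not run, with 3 neutrophil-like cells in Batch 1. Members below 50 UMIs, and types with few cells, are limited by depth.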
